A study of Homo sapiens with 2 samples.

Results

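The genes described here encode histones, the proteins that package DNA into nucleosomes. They were taken as all gene symbols of the deposited table that name a replication-dependent histone (HIST1 to HIST4) or a variant histone (H2AF symbols, H3F3A, H3F3B, H1F0 and H1FX), which gave 84 of 26260 symbols. Of these, 73 are replication-dependent symbols and 11 are variants, with 102 of the table's 63236 isoforms. RNA was profiled in HCT-116, an established human colorectal carcinoma line, in 1 LPA library and 1 control library. LPA cells were serum starved and then given 10 µM of lysophosphatidic acid, a signalling phospholipid, for 24 h. Control cells received none, and the sources used here do not say if they were starved too. Both were grown in DMEM with fetal bovine serum. The labels number both libraries as replicate 3, so other replicates may exist, but none was used here. With 1 library per condition no difference has a replicate check, and no test was made. Values are FPKM, the estimated fragments of a transcript scaled to its length and to the depth of the library, summed over the isoforms of a gene.

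A nucleosome holds H2A, H2B, H3 and H4, and a linker histone of the H1 family sits on the DNA between nucleosomes. Replication-dependent histone genes lie in clusters, have no introns and are made mainly in S phase, when new DNA must be packaged. Their mRNAs normally end in a short stem-loop instead of a poly-A tail, and stem-loop binding protein (SLBP) holds that end. Variant histones are made throughout the cell cycle from genes outside the clusters, and their mRNAs carry poly-A tails. Both libraries were made from poly-A RNA, a selection that favours transcripts with a tail.

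The stem-loop is the feature that sets these mRNAs apart, and it was searched in the GENCODE release 29 transcripts (GRCh38, the same assembly as the hg38 build of the table). The search took 16 bases on the transcript strand: a stem of 6 base pairs, G-T pairs allowed, whose first side starts with GG and ends with T and whose second side starts with A and ends with CC, around a 4-base loop TNTN. Of the 73 replication-dependent symbols, 33 had a transcript with the pattern, against 0.307% of all 58721 GENCODE genes with sequences. Among the 11 variant symbols only H2AFX had it. A lack of the pattern in the other 40 says only that their GENCODE models do not hold it, since many of these models stop at the end of the coding region. The sites of genes described below are shown with the stem-loop in capitals and flanking bases in lower case.
HIST1H2AC (chr6:26124669-26124684, + strand): aaaGGCTCTTTTCAGAGCCcccct
HIST3H2A (chr1:228457369-228457384, - strand): aaaGGCTCTTTTCAGAGCCaccta
HIST1H2BD (chr6:26158587-26158602, + strand): aaaGGCTCTTTTAAGAGCCacgca
HIST1H3E (chr6:26225596-26225611, + strand): aaaGGCTCTTCTCAGAGCCaacca
HIST1H4E (chr6:26205001-26205016, + strand): aaaGGCCCTTTTCAGGGCCgccca
HIST1H4B (chr6:26026901-26026916, - strand): aatGGCCCTTTTCAGGGCCgccca
H2AFX (chr11:119094898-119094913, - strand): aaaGGCCCTTTTAAGGGCCaccac
The form seen in HIST1H2AC and HIST3H2A was the most frequent, in 17 of the 33 genes, and there were 6 forms in all. Of the 33 genes, 24 had a GENCODE transcript that ran at least 100 bases past the stem-loop, and in 17 of these that transcript had a poly-A signal (AATAAA or ATTAAA) in its last 40 bases. The models of the deposited table mostly do not include such extensions. In 24 of the 31 genes whose stem-loop fell inside the deposited locus, the locus ended within 10 bases after it. A value for such a gene therefore counts fragments from the body shared by tailed and untailed forms and does not show which end they had.

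Most histone FPKM in these poly-A libraries came from the variants. The selection favours tailed transcripts, so the shares below do not give the balance of histone mRNA in the cells. The variant symbols summed to 2380 FPKM in the LPA library and 2600 FPKM in the control library. That was 93.2% of all histone FPKM in the LPA library and 93.4% in the control library. The 73 replication-dependent symbols together had 173 FPKM in the LPA library and 185 FPKM in the control library. The log2 ratio of these sums, LPA over control with 1 FPKM added to each, was -0.13 for the variants and -0.10 for the replication-dependent genes. Within the replication-dependent sum, 5 genes with a mean of at least 5 FPKM held 75.3% in the LPA library and 80.6% in the control library. These 5 genes summed to 130 FPKM in the LPA library and 149 FPKM in the control library, whereas the 68 other symbols summed to 42.9 FPKM in the LPA library and 35.9 FPKM in the control library. The abundant and the scarce replication-dependent genes thus had sums on opposite sides, which does not show a pattern by level. Of the 5 abundant genes 1 had a log2 ratio above 0 and 4 below. HIST3H2A and HIST1H2AC together had 35.9 FPKM in the LPA library and 52.3 FPKM in the control library. The scarce genes rest on few estimated fragments. By class, H2A genes had 46.7 FPKM in the LPA library and 60.6 FPKM in the control library, and H2B genes had 69.6 FPKM in the LPA library and 74.6 FPKM in the control library. H1 genes summed to 40.2 FPKM in the LPA library and 35.5 FPKM in the control library. The H3 genes had 10.9 FPKM in the LPA library against 9.86 FPKM in the control library, and the H4 genes 5.77 FPKM in the LPA library against 4.54 FPKM in the control library.

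**Figure D1:**
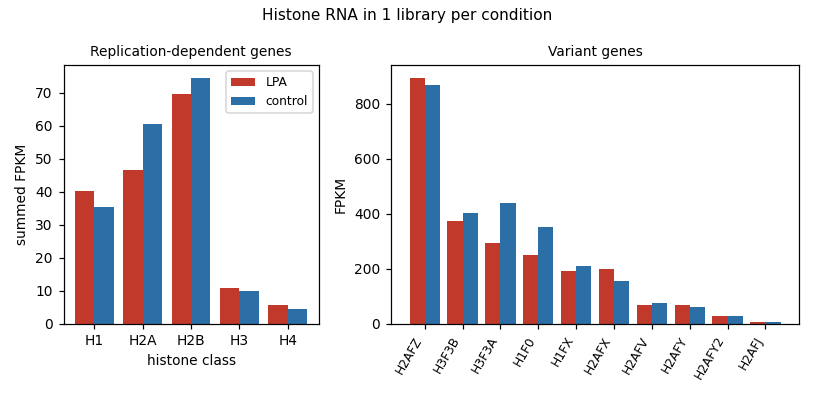
Summed FPKM of the replication-dependent genes by histone class (left) and FPKM of each variant gene with a mean of at least 1 FPKM (right), in the LPA library (red) and the control library (blue), 1 library each and without error bars. H2A genes had 46.7 FPKM in the LPA library and 60.6 FPKM in the control library, and H2AFZ was the most abundant variant in both.

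A gene was counted as measured at a mean of at least 1 FPKM over both libraries, which kept 29 of the 84 symbols, 19 of them replication-dependent and 10 variants. Another 24 symbols were below that level and 31 were listed at 0 in both libraries. At 2-fold, 2 of the 29 measured genes were higher in the LPA library (HIST1H1E and HIST1H4C), against 0.351% of all 11686 measured genes, and none was lower, against 0.205% of all. At 1.5-fold, 5 were higher in the LPA library, against 1.45% of all measured genes, and 3 were lower, against 1.54%. With ratios centred on reference genes 4 were higher and 4 lower, and centred on all genes 4 were higher and 3 lower. All 5 higher genes and 2 of the 3 lower genes had a mean under 5 FPKM and a leading isoform under 1000 nt, a range in which ratios scatter widely. Among all 252 measured genes in that range, 11.9% were 1.5-fold higher and 9.92% were 1.5-fold lower, while of its 13 histone genes 5 (38.5%) were higher and 2 (15.4%) lower. At 2-fold, 3.57% of the 252 were higher and 3.17% lower, beside 2 and 0 of the 13. This narrower background was chosen after the values were seen. The median log2 ratio was -0.07 for the 29 measured histone genes, 0.06 for the replication-dependent and -0.12 for the variant ones, beside 0.0009 for all measured genes. In log2 ratio, 14 of the 29 were above 0 and 15 below, and 50.2% of all measured genes were above 0.

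**Figure D2:**
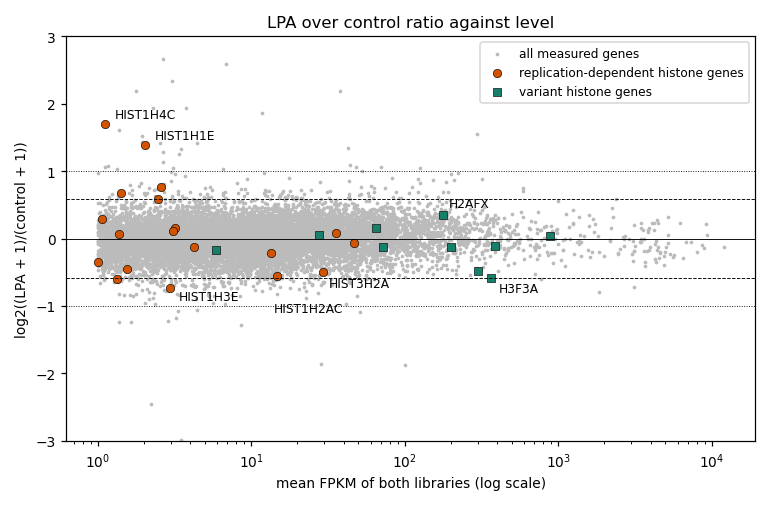
Log2 ratio of LPA over control, with 1 FPKM added, against the mean FPKM of both libraries for all measured genes (grey), replication-dependent histone genes (orange circles) and variant histone genes (green squares). Dashed lines mark 1.5-fold and dotted lines 2-fold, 22 genes lie outside the plotted range, and the scatter of all genes is widest at low FPKM, where HIST1H1E lies and HIST1H4C, listed at 0 in the control library, is drawn.

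Among the replication-dependent genes, the linker histone gene HIST1H1E (histone H1.4, chromosome 6, 26156331 to 26157115) had the highest log2 ratio, with 1 FPKM added, of the measured genes above 0 in both libraries. It had 3.41 FPKM in the LPA library and 0.683 FPKM in the control library, a log2 ratio of 1.39. The deposited bounds of its 785-nt isoform were 1.59 to 5.24 FPKM in the LPA library and 0.0382 to 1.33 FPKM in the control library, so they did not overlap. By the worth of 1 fragment estimated from the lowest values in the table, about 36 fragments in the LPA library and 8 in the control library lay behind these values. The other measured linker gene, HIST1H1C (histone H1.2), was more abundant and nearly level, with 36.8 FPKM in the LPA library and 34.6 FPKM in the control library. Of the 4 remaining H1 symbols, HIST1H1D was listed at 0 in the LPA library and at 0.0913 FPKM in the control library, and HIST1H1B at 0 in the LPA library and at 0.103 FPKM in the control library. HIST1H1A and the testis gene HIST1H1T were listed at 0 in both libraries.

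The H4 gene HIST1H4C (chromosome 6, 26103948 to 26104337) was listed at 2.24 FPKM in the LPA library, about 8 fragments, and at 0 in the control library. It passed the filter on low values only through the LPA library, as did HIST1H1E, HIST1H3D and HIST1H2BJ, which were under 1 FPKM in the control library. These 4 include both genes that were 2-fold higher and 3 of the 5 that were 1.5-fold higher, so their number is not evidence of a direction. HIST1H2AJ and HIST2H2BE passed only through the control library. The bounds were 0.0962 to 4.38 FPKM in the LPA library and both 0 in the control library, and the table gives the status of all histone estimates as OK. HIST1H4E, the other measured H4 gene, had 1.16 FPKM in the LPA library and 1.94 FPKM in the control library, with overlapping bounds. All H4 genes encode nearly the same protein, and similar coding sequences across these genes may share reads, so the split among members of a class is uncertain.

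The H2A genes included the 2 abundant replication-dependent members with the lowest ratios. HIST3H2A (chromosome 1, 228457364 to 228457859) had 24.2 FPKM in the LPA library and 34.7 FPKM in the control library, a log2 ratio of -0.50. HIST1H2AC (chromosome 6, 26124145 to 26124690) had 11.7 FPKM in the LPA library and 17.6 FPKM in the control library, a log2 ratio of -0.55. Both stayed just short of 1.5-fold on this scale, and their bounds overlapped, at 14.6 to 33.7 FPKM in the LPA library and 22.7 to 46.7 FPKM in the control library for HIST3H2A. Each has a GENCODE transcript that passes the stem-loop shown above and ends in a poly-A signal, by 390 bases in HIST3H2A and by 1128 bases in HIST1H2AC. Among the scarcer H2A genes, HIST1H2AM had 3.51 FPKM in the LPA library and 1.64 FPKM in the control library, and HIST2H2AC had 3.16 FPKM in the LPA library and 1.78 FPKM in the control library, just past 1.5-fold. HIST1H2AJ was lower, with 0.856 FPKM in the LPA library against 1.81 FPKM in the control library. About 3 to 19 fragments per library lay behind the values of these 3 genes, and their bounds overlapped. HIST1H2AG was nearly level, with 1.42 FPKM in the LPA library and 1.33 FPKM in the control library.

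H2B genes had the highest summed FPKM of the replication-dependent classes, and none of the 6 measured ones was 1.5-fold apart. HIST1H2BK, whose locus in the table also holds HIST1H4I, had 45.4 FPKM in the LPA library and 47.8 FPKM in the control library. HIST1H2BD had 12.3 FPKM in the LPA library and 14.4 FPKM in the control library. HIST1H2BD has a short form and a spliced form in the table. The spliced form, NM_138720 of 813 nt, made up 80.4% of the gene's FPKM in the LPA library and 81.6% in the control library. In GENCODE its counterpart skips 12415 bases as an intron, lacks the stem-loop and has AATAAA starting 25 bases from its end. The 487-nt form had 2.41 FPKM in the LPA library and 2.66 FPKM in the control library. Its counterpart holds the stem-loop printed above and also has AATAAA, starting 27 bases from its end. The other 4 measured H2B symbols ranged from a log2 ratio of -0.35 for HIST2H2BE to 0.29 for HIST1H2BJ. One of them, HIST2H2BC, is annotated as a transcribed pseudogene.

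For H3, HIST1H3E (chromosome 6, 26225155 to 26225616) had 1.98 FPKM in the LPA library and 3.93 FPKM in the control library, a log2 ratio of -0.73 with overlapping bounds. It was the lowest ratio of the 29 measured genes, with about 10 fragments in the LPA library and 22 in the control library. HIST1H3D was on the other side, with 1.96 FPKM in the LPA library and 0.856 FPKM in the control library, but it shares its locus with HIST1H2AD, and the division between them is uncertain. HIST1H3H, the most abundant H3 gene of the clusters, had 4.01 FPKM in the LPA library and 4.43 FPKM in the control library.

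**Figure D3:**
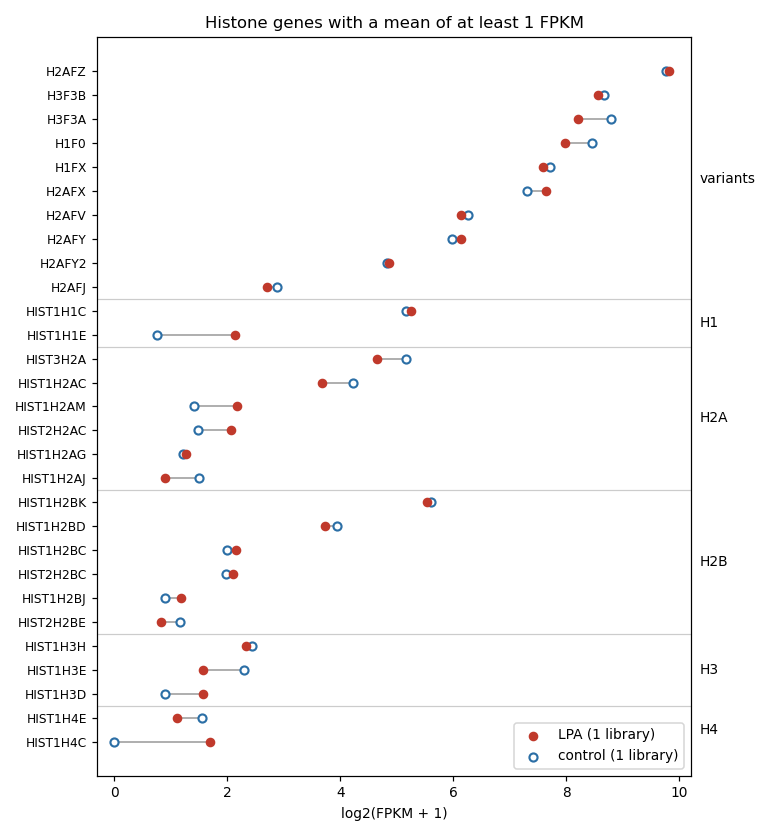
FPKM of the 29 measured histone genes as log2(FPKM + 1) in the LPA library (filled red) and the control library (open blue), 1 library each, grouped by class and ordered by level. The variants span a wide range up to H2AFZ, and the widest gaps between libraries are in scarce replication-dependent genes.

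**Figure D4:**
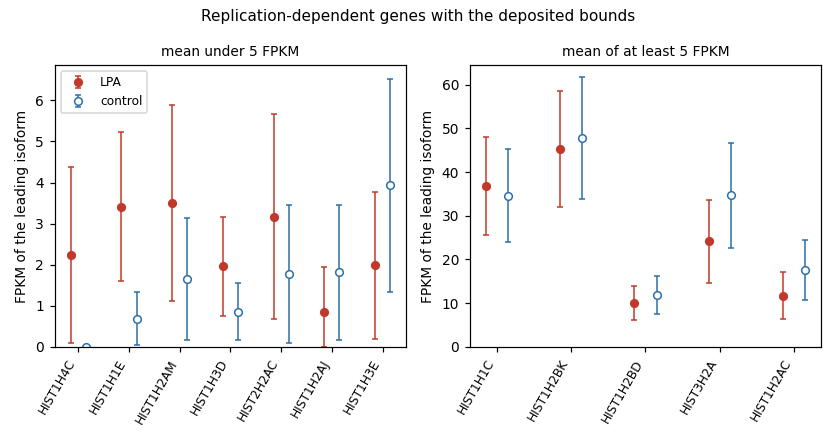
FPKM of the leading isoform with the deposited lower and upper bounds in the LPA library (red) and the control library (open blue) for the replication-dependent genes that are at least 1.5-fold apart or have a mean of at least 5 FPKM. The bounds are the deposited ones of 1 library and carry no replicate spread, and only HIST1H1E and HIST1H4C have bounds that do not overlap, and the control bounds of HIST1H4C are both 0.

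Over all members, 37 isoforms had a mean of at least 1 FPKM, and 2 of them were at least 2-fold apart with separate bounds, those of HIST1H1E and HIST1H4C. Of all 16999 isoforms at that level 3.99% met the same rule. At any fold, 2 of the 37 had separate bounds, against 4.61% of all, so the histone isoforms were near the background.

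Replication-dependent genes were also grouped by whether GENCODE has a transcript running at least 100 bases past the stem-loop, a split made after the values were seen. Of the 9 measured genes with such a transcript, 3 had a log2 ratio above 0 and 6 below, with a median of -0.35 and a range from -0.73 to 0.15. Their group summed to 54.3 FPKM in the LPA library and 75.3 FPKM in the control library. Of the 9 measured genes without the stem-loop in any model, 7 were above 0 and 2 below, with a median of 0.59 and a sum of 105 FPKM in the LPA library against 95.1 FPKM in the control library. Of all measured genes 50.2% were above 0. Among the 7, HIST1H1E, HIST1H2BJ, HIST1H3D and HIST1H4C passed the filter on low values only through the LPA library. HIST1H2AJ in the same group, and HIST2H2BE in the group with the longer transcript, passed only through the control library. The counts and medians of these groups are therefore not evidence of a direction. All 5 members that were 1.5-fold higher, each with a mean under 5 FPKM, were among the genes without the stem-loop in a model. Of all measured genes 1.45% were 1.5-fold higher, and of the short, scarce ones 11.9%. HIST1H1E, HIST1H3D and HIST1H4C, which passed the filter only through the LPA library, are 3 of the 5. Their count is therefore not evidence of a link with the stem-loop. In the group with the longer transcript, HIST3H2A and HIST1H2AC made up most of the difference in sums, with 35.9 FPKM together in the LPA library and 52.3 FPKM in the control library. HIST1H2BD was the only measured gene whose models held the stem-loop and ended sooner than that. The grouping follows how far annotators extended each model, and bulk RNA cannot tell fewer cells with a transcript from less of it per cell. Transcript length gave a coarser split, since only HIST2H2BE of the measured replication-dependent genes had a leading isoform over 1000 nt (0.763 FPKM in the LPA library and 1.24 FPKM in the control library).

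RNAs without a poly-A tail were listed beside these genes for comparison. Their models are short, from 117 nt for RNU5A-1 to 451 nt for TERC, and the list does not measure how much untailed RNA each library held. Of 14 such RNAs 9 were measured, 6 with a log2 ratio above 0 and 3 below, beside 50.2% of all measured genes above 0. The other 5 were at 0 in both libraries. The list summed to 4250 FPKM in the LPA library and 6540 FPKM in the control library, most of it in RN7SL2 and RN7SL1. RN7SK, the RNA of a transcription regulator, had 297 FPKM in the LPA library and 150 FPKM in the control library, while RN7SL2, a signal recognition particle RNA, had 2360 FPKM in the LPA library and 3890 FPKM in the control library. The highest log2 ratio was that of RNU6ATAC, listed at 61.8 FPKM in the LPA library and at 0 in the control library. The lowest was that of RNU4-1, with 34.6 FPKM in the LPA library and 63.4 FPKM in the control library. The list thus went both ways, and its part in the values of the histone genes was not tested.

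Many H2A and H2B genes stand back to back and are transcribed away from each other from a shared stretch of DNA. Among the symbols whose positions in GENCODE and in the table matched, 11 such pairs had starts 219 to 331 bases apart, and 7 pairs held a measured gene. Listed levels within a pair were often far apart. Poly-A selection favours tailed forms, so these levels do not show how strongly each gene of a pair was transcribed. HIST3H2A, at 24.2 FPKM in the LPA library and 34.7 FPKM in the control library, faces HIST3H2BB, at 0.522 FPKM in the LPA library and 0.663 FPKM in the control library, a ratio of mean levels of 49.7. The imbalance ran the other way for HIST1H2BK, which faces HIST1H2AH at 0.764 FPKM in the LPA library and 0.628 FPKM in the control library, a ratio of 66.9. HIST1H2AG and HIST1H2BJ were closest, with a ratio of 1.28. In the pair of HIST2H2AC and HIST2H2BE the H2A gene was listed higher and the H2B gene lower in the LPA library. The bounds of each overlapped between libraries, so opposite directions are not shown. HIST1H2AC was lower in the LPA library, while HIST1H2BC, its neighbour at 219 bases, had 3.43 FPKM in the LPA library and 2.99 FPKM in the control library. About 13 fragments in the LPA library and 14 in the control library lay behind HIST1H2BC, and the bounds of both genes overlapped.

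**Figure D5:**
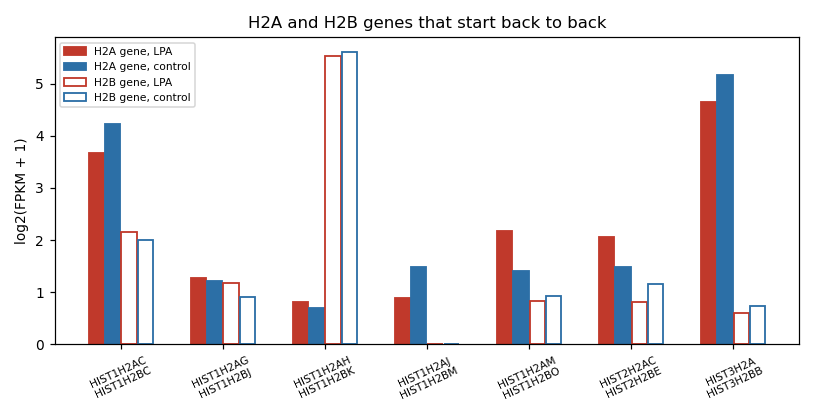
Levels as log2(FPKM + 1) of the H2A gene (filled bars) and the H2B gene (open bars) of the 7 back-to-back pairs with a measured gene, in the LPA library (red) and the control library (blue). HIST3H2A stands far above HIST3H2BB, and HIST1H2BK far above HIST1H2AH, in both libraries.

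The shared stretch between HIST1H2AC and HIST1H2BC is shown from the RefSeq promoter of HIST1H2AC (GRCh38.p14, chr6:26123922-26124221, + strand), beside the promoter of HIST1H1E (chr6:26156079-26156378, + strand), a gene 2-fold higher in the LPA library. Capitals mark the TATA box (TATAAA), the CCAAT box (its own letters), the octamer (ATTTGCAT) and the H1 box (AAACACA), on either strand.
HIST1H2AC: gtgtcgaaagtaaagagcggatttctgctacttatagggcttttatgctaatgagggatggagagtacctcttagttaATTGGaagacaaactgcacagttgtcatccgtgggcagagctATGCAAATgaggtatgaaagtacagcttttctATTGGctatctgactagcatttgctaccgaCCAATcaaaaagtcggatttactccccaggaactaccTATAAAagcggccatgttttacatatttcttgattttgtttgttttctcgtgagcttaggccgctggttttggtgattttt
HIST1H1E: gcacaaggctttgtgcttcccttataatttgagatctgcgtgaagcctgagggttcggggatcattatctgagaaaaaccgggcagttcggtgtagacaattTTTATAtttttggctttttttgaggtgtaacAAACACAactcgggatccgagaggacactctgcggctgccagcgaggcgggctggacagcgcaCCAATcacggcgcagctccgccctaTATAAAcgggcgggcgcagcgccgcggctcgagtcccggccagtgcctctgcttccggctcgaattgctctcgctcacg
RefSeq promoters of 300 bases were matched for 75 of the 84 symbols. The octamer ATTTGCAT, bound by POU2F1 in H2B genes, was in 14 of 18 H2B promoters, against 1.80% of all 27305 promoters. The letters AAACACA, known as the H1 box, were in all 6 H1 promoters, against 5.76% of all promoters. CCAAT was in 55 of the 65 replication-dependent promoters (84.6%), against 35.7% of all, and TATAAA in 43 of them (66.2%), against 3264 of all 27305. Each match is a run of letters and not a measured binding site. HIST1H1E and HIST1H1C both have the H1 box, and their ratios differed as given above.

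Variant histone genes had far higher FPKM in these poly-A libraries, which favour their tailed mRNAs. The log2 ratios of the 10 measured ones ran from -0.59 to 0.35. H2AFZ (histone H2A.Z, found at promoters; chromosome 4, 99948087 to 99950355) led with 895 FPKM in the LPA library and 869 FPKM in the control library. The pair H3F3A and H3F3B encode the same protein, H3.3, the H3 that is placed outside replication. H3F3A (chromosome 1, 226062707 to 226072002) had 293 FPKM in the LPA library and 440 FPKM in the control library, a log2 ratio of -0.59, just past 1.5-fold and lowest of the variants. The bounds of its leading isoform overlapped, at 210 to 369 FPKM in the LPA library and 314 to 551 FPKM in the control library. H3F3B was nearer to level, with 374 FPKM in the LPA library and 404 FPKM in the control library. H3F3B was thus listed as the more abundant of the pair in the LPA library and the less abundant in the control library. The bounds of H3F3B were 267 to 481 FPKM in the LPA library and 288 to 519 FPKM in the control library. Those of H3F3A overlapped them in each library, so the order of the pair is uncertain. H3F3A has processed pseudogenes that can share its reads.

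H1F0, a linker histone known from cells that no longer divide, had 250 FPKM in the LPA library and 350 FPKM in the control library, a log2 ratio of -0.48. Its locus in the table spans many genes and its bounds were wide and overlapped. H1FX, another linker variant, had 192 FPKM in the LPA library and 209 FPKM in the control library. H2AFX (histone H2A.X, which is phosphorylated at DNA breaks; chromosome 11, 119093875 to 119095467) had the highest ratio of the variants, 0.35, with 199 FPKM in the LPA library and 156 FPKM in the control library. It is the variant that carries the stem-loop printed above. A GENCODE transcript of H2AFX goes on for 1044 bases after the stem-loop, without a poly-A signal in its last 40 bases. Another goes on for 821 bases and has such a signal. The bounds of the only deposited H2AFX isoform overlapped.

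H2AFV, which encodes a second H2A.Z, had 69.4 FPKM in the LPA library and 75.5 FPKM in the control library. Its leading isoform NM_012412 held 72.2% of this in the LPA library and 69.0% in the control library. The macroH2A genes, whose products carry a large extra domain, were close to level. H2AFY had 69.0 FPKM in the LPA library and 61.9 FPKM in the control library, and H2AFY2 had 28.2 FPKM in the LPA library and 27.2 FPKM in the control library. Of the H2AFY isoforms, NM_001040158 held 62.7% in the LPA library and 62.4% in the control library, and NM_138610 held 30.1% in the LPA library and 32.4% in the control library. H2AFJ had 5.52 FPKM in the LPA library and 6.31 FPKM in the control library. Its noncoding form NR_027716 was 0.183% of the gene in the LPA library and 6.28% in the control library. That form was scarce, with 0.0101 FPKM (bounds 0 to 0.0915) in the LPA library and 0.396 FPKM (bounds 0 to 0.943) in the control library. These bounds overlapped, so the percentages do not show a change of form. H2AFB2, a short H2A of the X chromosome, was listed at 0 in both libraries. The same transcript is listed at 3 loci, so this 0 need not mean absence.

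The 24 detected symbols with a mean under 1 FPKM were all replication-dependent. The highest were HIST1H4D (0.820 FPKM in the LPA library and 1.05 FPKM in the control library), HIST1H2BN (0.566 FPKM in the LPA library and 1.21 FPKM in the control library) and HIST1H3J (1.56 FPKM in the LPA library and 0.206 FPKM in the control library). Of the 73 replication-dependent symbols 36 were above 0 in the LPA library and 38 in the control library, 7 were at 0 only in the LPA library and 5 only in the control library. The 30 at 0 in both libraries included the testis genes HIST1H2AA, HIST1H2BA, HIST1H1T and HIST3H3. They also included HIST2H4A and HIST2H4B, HIST2H2AA3 and HIST2H2AA4, and HIST2H3A and HIST2H3C, which are pairs of near-identical copies, so their listed 0 need not mean absence.

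Genes that make, process and place histones were all measured, in lists drawn from textbook roles. Of 23 genes for histone transcription and mRNA processing, all measured, 15 had a log2 ratio above 0 and 8 below, with a median of 0.13. Of all measured genes 50.2% were above 0, with a median of 0.0009. None of the 23 was past 1.5-fold, against 1.45% of all on the higher side and 1.54% on the lower. The highest were the transcription factor gene E2F1 (14.2 FPKM in the LPA library and 9.31 FPKM in the control library), ZNF473, whose product works with the U7 particle in cutting histone pre-mRNA (4.21 FPKM in the LPA library and 2.82 FPKM in the control library), and SLBP, which binds the stem-loop (54.1 FPKM in the LPA library and 41.8 FPKM in the control library). The lowest were SNRPG, SNRPE and the uridylyl transferase gene ZCCHC6, with log2 ratios of -0.26, -0.21 and -0.17. NPAT, the coactivator of histone gene clusters, had 2.24 FPKM in the LPA library and 2.30 FPKM in the control library.

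Of 30 genes for histone chaperones and deposition, 16 were above 0 and 14 below, beside 50.2% of all measured genes above 0. Their median log2 ratio was 0.07. CHAF1A, the large subunit of the complex that places H3 and H4 at replication forks, had 15.1 FPKM in the LPA library and 9.07 FPKM in the control library. SSRP1, a subunit of the FACT chaperone, had 115 FPKM in the LPA library and 75.5 FPKM in the control library, and the ATPase gene RUVBL1 had 83.4 FPKM in the LPA library and 61.8 FPKM in the control library. At the other end ASF1A, a chaperone of H3 and H4, had 11.4 FPKM in the LPA library and 17.9 FPKM in the control library, past 1.5-fold, while its relative ASF1B had 34.5 FPKM in the LPA library and 36.0 FPKM in the control library. VPS72, which helps load H2A.Z, and the histone acetyltransferase gene HAT1 followed with log2 ratios of -0.36 and -0.22. Past 1.5-fold were 2 genes of the list on the higher and 1 on the lower side, against the backgrounds of 1.45% and 1.54% given above.

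Of 20 S phase genes, 16 were above 0 and 4 below, beside 50.2% of all measured genes above 0, with a median log2 ratio of 0.23. MCM10, at 0.60, was the 1 gene of the list past 1.5-fold, against 1.45% of all. GINS2 and MCM3 followed with 0.49 and 0.43, and CCNE2, RRM1 and CDK2 were lowest with -0.44, -0.14 and -0.12. The summed FPKM of the list was 842 in the LPA library and 710 in the control library. That of the replication-dependent histone genes was 173 in the LPA library and 185 in the control library. These sums are unlike measures, since poly-A selection favours tailed transcripts and the histone sum may miss untailed mRNA. A relation between them was not tested.

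The FPKM of all isoforms with an estimate in both libraries summed to 708746 in the LPA library and 717274 in the control library, with about 15600000 fragments in the LPA library and 16700000 fragments in the control library, both estimated from the lowest values. Of 7 epithelial markers 6 were measured, all with a log2 ratio above 0, beside 50.2% of all measured genes. Their summed level was 3760 FPKM in the LPA library and 2880 FPKM in the control library, and VIL1 was at 0 in both libraries. Measured markers of other cell types were 1 of 6 for fibroblasts (COL1A1), 1 of 5 for immune cells (CD68) and 0 of 3 for endothelium. Their part in the histone values was not tested.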

How the data were processed

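Poly-A RNA of 1 LPA and 1 control library of HCT-116 cells was sequenced, from TruSeq V2 libraries per the labels' protocols. Per the submitters' processing notes, the hg38 build was used with Cuffdiff 2.2.0, Cufflinks, TopHat2 2.0.12 and bcl2fastq 2.16.0.10, and no source used here gives settings or scaling. The authors' table holds FPKM per isoform with lower and upper bounds of unstated level, per the file headers. The kit does not mark strand.

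Isoforms without an estimate in the LPA library (27, none of a histone gene) were treated as missing. FPKM were summed per symbol. Log2 ratios are log2((LPA + 1)/(control + 1)), which understates the change of low genes. Read totals were not used here, and the worth of 1 fragment was estimated per length range from the lowest values of single-isoform loci, and covers counting only. Named are all members at a mean of 5 FPKM or more, measured members past 1.5-fold, the 3 highest below the filter, and the 3 highest and lowest of each pathway list. The members and lists were chosen with earlier results of these data known, and the stem-loop grouping and the background of short, scarce genes after the values were seen. Calculations used Python 3.11.15 and pandas 2.3.3 and were tested on simulated data. No library was left out, and 11 alternative settings were tried.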

Additional observations from a re-analysis of the deposited data

How the results depend on the processing

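No paired analysis was possible because each condition had 1 library, and for the same reason no replicate could be left out. Under 11 other settings no measured histone gene was 2-fold lower in the LPA library. With a pseudocount of 0.1 FPKM, 4 genes were 2-fold higher and 6 were 1.5-fold lower. With a pseudocount of 5 FPKM, 0 were 2-fold higher, 0 were 1.5-fold higher and 0 were 1.5-fold lower. Without a filter on FPKM, 4 were 2-fold higher and 8 were 1.5-fold higher, and the median log2 ratio of the replication-dependent genes was -0.07. At a mean of at least 5 FPKM, 0 were 2-fold higher, 0 were 1.5-fold higher and 1 was 1.5-fold lower, and that median was -0.21, since the scarce genes leave the set. Splitting leading isoforms at 700 nt instead of 1000 nt put 6 measured replication-dependent genes in the long class in place of 1. The other 88 recomputed summary values stayed within 1.5 times the count or within 0.24 of the log2 ratio, the spread between the libraries of genes at a mean of at least 5 FPKM (scaled median absolute deviation). The log2 ratio of HIST1H1E ranged from 0.57 to 2.17 and that of H2AFZ from -0.01 to 0.04. That of HIST1H4C, listed at 0 in the control library, ranged from 0.53 to 4.55 with the pseudocount and is no measure of size. H3F3A ranged from -0.64 to -0.58 and passed 1.5-fold in 10 of 12 settings, but not with its leading isoform alone or a pseudocount of 5 FPKM. HIST1H2AC passed 1.5-fold in 2 of 12 settings and HIST2H2AC in 8 of 11. Scarce histone genes rest on few estimated fragments, which limits what their ratios can show.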

Other observations

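Below the filter on low values, 3 genes of the HIST1 cluster with higher values in the LPA library were picked out after their values were seen. HIST1H3B had 1.11 FPKM in the LPA library and 0.224 FPKM in the control library, HIST1H3J had 1.56 FPKM in the LPA library and 0.206 FPKM in the control library, and HIST1H4B had 1.25 FPKM in the LPA library and was listed at 0 in the control library. The estimated fragments behind these values were 6, 8 and 4 in the LPA library and 1, 1 and 0 in the control library. In the other direction, HIST1H4K was listed at 0 in the LPA library and at 0.715 FPKM in the control library, about 3 fragments.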
